A study of Mus musculus with 20 samples.

Results

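The genes of dopamine synthesis, transport and breakdown were examined in RNA sequencing of mouse hypothalamus slices after a risperidone diet. They comprise the synthesis genes Th, Ddc and Gch1, the transporter genes Slc6a3 and Slc18a2, and the monoamine oxidase genes Maoa and Maob. They were found by matching the identifiers of the count table to the gene symbols of the GENCODE M21 annotation of GRCm38, which gave 7 of 55471 genes. All 7 passed the filter on low counts, which left 17893 genes for testing. They were matched by symbol and not by a measured value, but were chosen with earlier results of these data known.

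All mice were wild type and of the C57BL/6 strain, and the labels used here give neither age nor sex. In the pair-fed risperidone group (6 libraries), the mice received a diet with risperidone for 4 weeks with food intake restricted by pair feeding. In the ad libitum risperidone group (7 libraries), the same diet was given for 4 weeks with free access. The control group (7 libraries) had free access to a control diet, and no group was pair-fed with the control diet. Risperidone, an antipsychotic drug, is an antagonist at dopamine D2 and serotonin 2A receptors. The labels do not state that each library came from its own mouse. All p-values therefore reflect only how far these samples spread, and part of that spread may be technical.

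Dopamine is made from tyrosine by tyrosine hydroxylase, the rate-limiting enzyme encoded by Th, which needs the cofactor tetrahydrobiopterin. GTP cyclohydrolase, encoded by Gch1, starts the synthesis of that cofactor, and the decarboxylase encoded by Ddc turns L-DOPA into dopamine and 5-hydroxytryptophan into serotonin. The vesicular transporter VMAT2, encoded by Slc18a2, loads monoamines into vesicles, the plasma membrane transporter DAT, encoded by Slc6a3, takes dopamine back up, and the mitochondrial oxidases encoded by Maoa and Maob degrade it. In the hypothalamus, dopamine neurons of the arcuate nucleus restrain prolactin release from the pituitary. Histamine neurons of the tuberomammillary nucleus share VMAT2 with dopamine cells and also contain monoamine oxidase B.

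Promoter windows of 250 bases before to 50 bases from the transcription start were available from RefSeq (GRCm38.p6) for 6 of the 7 genes, with a pair of windows for Ddc, and Maob was not among them. The 4 shown are those of Slc6a3 and Slc18a2, whose levels varied together over the libraries, that of Th, which holds the same cAMP response element (CRE) as Slc18a2, and the upstream window of Ddc, the gene with the smallest p against control. Capitals mark every match on either strand to the CRE (TGACGTCA), the AP-1 site (TGANTCA), the NBRE (AAAGGTCA, bound by Nr4a receptors), the GC box (GGGCGG) or the TATA box (TATAAA). All sequences run 5′ to 3′ on the gene's strand.
Th, chr7:142899946-142900245, minus strand: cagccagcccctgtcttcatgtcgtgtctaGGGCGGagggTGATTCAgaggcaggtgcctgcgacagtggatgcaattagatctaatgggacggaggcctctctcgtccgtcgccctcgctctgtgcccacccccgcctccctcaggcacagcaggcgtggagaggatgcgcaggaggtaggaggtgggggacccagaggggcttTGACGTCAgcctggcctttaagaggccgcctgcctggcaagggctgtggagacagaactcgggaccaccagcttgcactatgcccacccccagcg
Ddc, chr11:11898095-11898394, minus strand: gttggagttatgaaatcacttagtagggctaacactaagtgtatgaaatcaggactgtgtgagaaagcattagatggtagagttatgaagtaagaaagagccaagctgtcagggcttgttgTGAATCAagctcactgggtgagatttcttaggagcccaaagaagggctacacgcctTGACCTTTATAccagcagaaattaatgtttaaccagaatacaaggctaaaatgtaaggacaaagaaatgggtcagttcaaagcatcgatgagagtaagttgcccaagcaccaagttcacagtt
Slc6a3, chr13:73536497-73536796, plus strand: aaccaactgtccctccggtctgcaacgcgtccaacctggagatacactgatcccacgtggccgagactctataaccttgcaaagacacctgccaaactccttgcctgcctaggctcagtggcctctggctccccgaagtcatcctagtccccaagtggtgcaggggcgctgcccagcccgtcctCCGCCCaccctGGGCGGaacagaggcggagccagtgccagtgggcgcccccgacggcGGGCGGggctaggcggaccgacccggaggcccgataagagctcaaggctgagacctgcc
Slc18a2, chr19:59260628-59260927, plus strand: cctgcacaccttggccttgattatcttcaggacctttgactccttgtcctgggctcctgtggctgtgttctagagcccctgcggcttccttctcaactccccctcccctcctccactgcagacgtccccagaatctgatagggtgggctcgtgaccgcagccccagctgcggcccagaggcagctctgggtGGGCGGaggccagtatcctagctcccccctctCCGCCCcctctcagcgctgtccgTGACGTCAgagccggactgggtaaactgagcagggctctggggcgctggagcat
The CRE letters began at position −45 from the start site in Th and at −4 in Slc18a2, and were present in 2 of the 7 windows of these genes and in 1.79% of the 32851 windows of the table. AP-1 letters were found in Th at −210 and in the upstream window of Ddc at −129, against 7.81% of all windows. The upstream Ddc window also held an NBRE on the opposite strand at −73, a match present in 1.51% of all windows, which overlapped a TATA box match on the opposite strand at −68. GC boxes were present in 5 of the 7 windows, with 3 in Slc6a3 and 2 in Slc18a2, against 35.7% of all windows, and TATA box letters in the windows of Ddc and Gch1, against 13.6%. The glucocorticoid response element had no match in the 7 windows, and 0.00913% of all windows held one. A match describes letters in a window and not binding.

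Total counts lay between 17316043 and 18606543 in 19 libraries, and ad libitum risperidone library 3 held 9748005. Ribosomal RNA genes and genes resembling them took 32.8% of the counts of library 3, against 2.52% to 5.99% of the counts of the other libraries. Ad libitum risperidone library 1 had a summed level of 1190 CPM (counts scaled to the library size with the TMM method) over 11 markers of cortex, hippocampus and amygdala neurons, against 150 to 212 CPM in the other libraries of its group, 140 to 170 CPM in the pair-fed and 148 to 170 CPM in the control libraries. The summed level of 10 striatal neuron markers was 375 CPM in ad libitum library 3, against 250 to 314 CPM in the other libraries of its group. It was 234 to 260 CPM in the pair-fed and 254 to 268 CPM in the control libraries. Ad libitum libraries 1 and 3 are kept in the values below unless stated. Of 15 genes that define the hypothalamus, 14 were detected in all 20 libraries, led by Hcrt, Pmch and Avp, and Kiss1, whose exons overlap 2 other genes on its strand, had 0 counts. In bulk tissue, fewer cells of a type and less RNA per cell cannot be told apart.

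Th was the most abundant of these genes per length of transcript and Gch1 the least (levels in CPM per kilobase of exon). Th averaged 23.3 ± 2.54 CPM per kilobase in pair-fed risperidone, 22.1 ± 4.69 in ad libitum risperidone and 22 ± 1.29 in control (SD, n = 6, 7 and 7), followed by Maob at 18.1 ± 1.76, 17.5 ± 2.78 and 18.6 ± 1.75 in the same groups. The ranges of Th and Maob overlapped in each group, so that their order was not separated by the spread. Maoa came next at 13.4 ± 0.541 CPM per kilobase in pair-fed risperidone, 11.7 ± 1.80 in ad libitum risperidone and 13.3 ± 0.531 in control, below every Maob value of its group. Ddc and Slc18a2 shared the following place with overlapping ranges, at 9.80 ± 0.724 and 9.92 ± 0.981 CPM per kilobase in pair-fed risperidone, 9.15 ± 1.48 and 9.40 ± 1.61 in ad libitum risperidone, and 10.7 ± 0.789 and 9.79 ± 1.01 in control. Slc6a3 averaged 2.36 ± 1.61 CPM per kilobase in pair-fed risperidone, 3.11 ± 2.77 in ad libitum risperidone and 1.77 ± 0.434 in control, above Gch1 at 0.888 ± 0.0985, 0.869 ± 0.210 and 0.998 ± 0.0740. The ranges of Slc6a3 and Gch1 overlapped in the ad libitum risperidone group and were separate in the pair-fed and control groups.

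**Figure D1:**
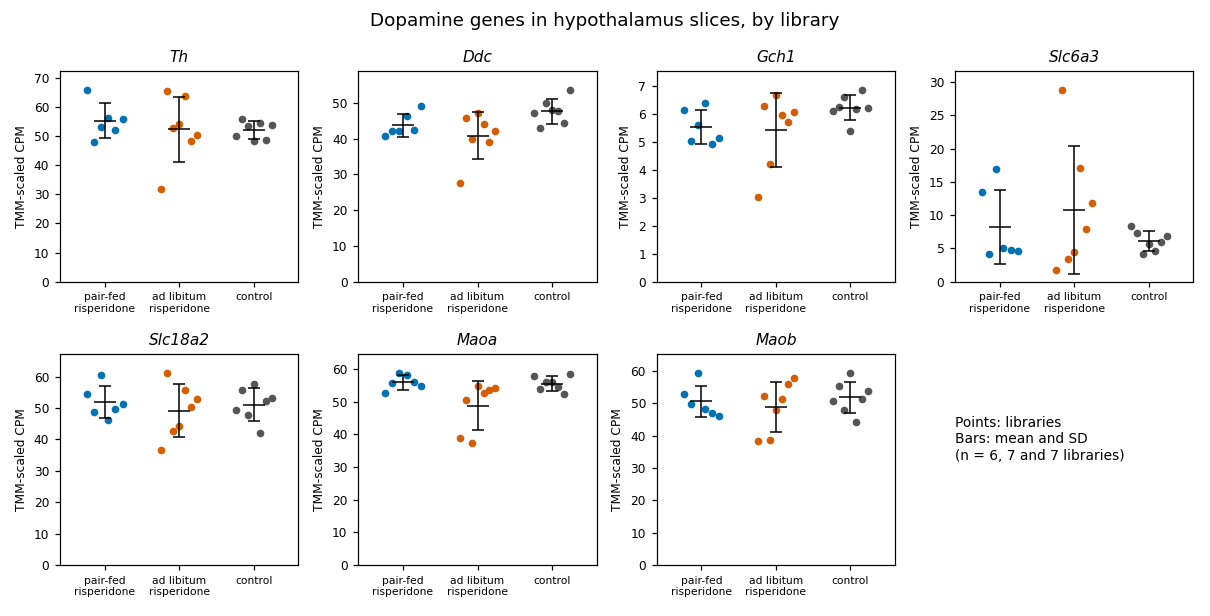
TMM-scaled CPM of the 7 dopamine genes in each library of pair-fed risperidone, ad libitum risperidone and control hypothalamus slices, with the mean and SD of each group (n = 6, 7 and 7), on axes that start at 0. The groups overlap for each gene, Slc6a3 spreads between 1.75 and 28.8 CPM in the ad libitum risperidone group, and ad libitum risperidone library 1 is the lowest of its group for Th, Ddc, Gch1, Slc6a3, Slc18a2 and Maob.

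None of the 7 genes passed the test in either risperidone group. The groups were compared in pairs, and the average of both risperidone groups with control. Pair-fed risperidone differed from control in both diet and feeding, and these cannot be told apart without a control group that was pair-fed. The same holds for the pair-fed part of that average. With edgeR's quasi-likelihood test and Benjamini-Hochberg adjustment over 17893 genes at 0.05, 0 of 7 were called in pair-fed risperidone against control (0.486% of all genes tested were), 0 of 7 in ad libitum risperidone against control (0.0615%), 0 of 7 in pair-fed against ad libitum risperidone (0.397%) and 0 of 7 when the average of both risperidone groups was set against control (0.33%). At an unadjusted p under 0.05 there were 0 of 7 in pair-fed risperidone against control (6.66% of all genes), 2 in ad libitum risperidone against control (13.1%), 1 between the risperidone groups (13.5%) and 1 for the mean of both (7.82%). DESeq2 and limma-voom also called 0 of 7 in each comparison. At an unadjusted p under 0.05, DESeq2 gave 0, 2, 1 and 1 of these genes in that order of comparisons and limma-voom 1, 2, 0 and 1. CPM ranges that did not overlap between groups occurred for 0 of 7 in each pairwise comparison, against 1.2% of all genes in pair-fed risperidone against control, 0.33% in ad libitum risperidone against control and 0.632% between the risperidone groups. The median log2 fold change of the 7 was 0.01 in pair-fed risperidone and −0.08 in ad libitum risperidone against control, beside 0.00 and 0.01 over all genes tested. The control libraries serve both comparisons with control. The shares of all genes given here are the background for the gene lists below too.

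**Figure D2:**
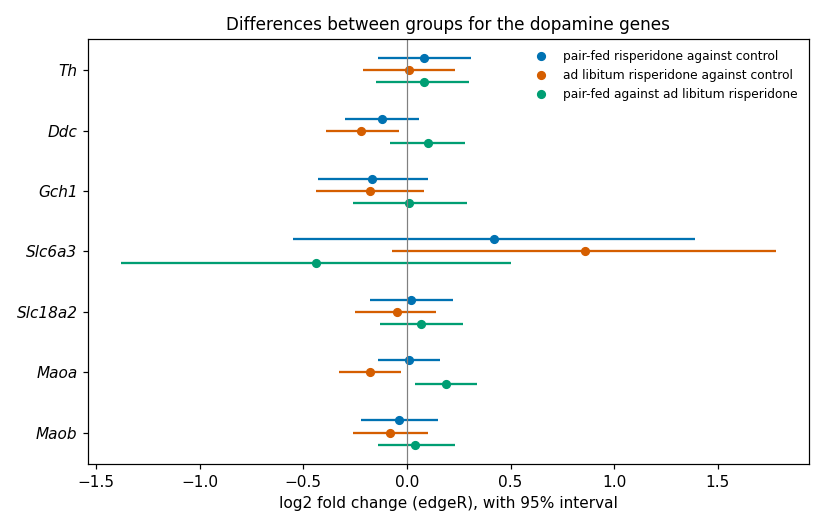
Log2 fold changes of the 7 dopamine genes from edgeR (points) with 95% intervals (lines) for pair-fed risperidone against control, ad libitum risperidone against control, and pair-fed against ad libitum risperidone. All adjusted p were at least 0.287, and the interval of Slc6a3 in ad libitum risperidone against control, −0.07 to 1.78, was wider than those of the other genes.

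Th (ENSMUSG00000000214) lies on chromosome 7 from 142892752 to 142931128 on the minus strand of GRCm38, with no overlapping gene. Its level was 48.1 CPM at the lowest, 54.5 at the median and 65.8 at the highest in pair-fed risperidone, 31.9, 52.7 and 65.3 CPM in ad libitum risperidone, and 48.4, 53.6 and 56.0 CPM in control. The groups overlapped, with pair-fed libraries 1, 4 and 6 above every control library and ad libitum libraries 2 and 5 at the top of their group. Against control the pair-fed log2 fold change of this gene was 0.08 (95% interval −0.14 to 0.31), and the ad libitum one was 0.01 (−0.21 to 0.23; adjusted p of 0.989 and 0.991, edgeR). Between pair-fed and ad libitum risperidone the difference was 0.08 (−0.15 to 0.30). Without ad libitum libraries 1 and 3, the value in ad libitum risperidone against control was 0.11 (−0.04 to 0.26).

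Ddc (ENSMUSG00000020182), on chromosome 11 from 11814101 to 11898144 on the minus strand, was measured at 40.6, 42.3 and 49.1 CPM (lowest, median and highest) in pair-fed risperidone, at 27.5, 42.2 and 47.2 CPM in ad libitum risperidone and at 42.9, 47.6 and 53.6 CPM in control. Each of the 7 ad libitum libraries and 5 of the 6 pair-fed libraries lay below the control mean of 47.6 ± 3.52 CPM (SD, n = 7), and the ranges overlapped. Means were 43.7 ± 3.23 CPM in pair-fed risperidone (SD, n = 6) and 40.8 ± 6.59 CPM in ad libitum risperidone (SD, n = 7). The log2 fold change against control was −0.12 (95% interval −0.30 to 0.06, adjusted p = 0.898, edgeR) in pair-fed risperidone. In ad libitum risperidone it was −0.22 (−0.39 to −0.04), with an unadjusted p of 0.0162 and an adjusted p of 0.288 in edgeR. For the average of both risperidone groups it was −0.17 (−0.32 to −0.02), with an adjusted p of 0.556 in edgeR. The value in ad libitum risperidone was −0.13 (−0.24 to −0.01, adjusted p = 0.362, edgeR) without ad libitum libraries 1 and 3. Between pair-fed and ad libitum risperidone, Ddc differed by 0.10 (−0.08 to 0.28). Its span overlaps 1700042O10Rik on the opposite strand outside exons, a gene with 48 counts in all against 15532 for Ddc.

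Gch1 (ENSMUSG00000037580), on chromosome 14 from 47153895 to 47189413 on the minus strand, was the least deeply counted of the 3 synthesis genes, with 88 to 118 reads per pair-fed library, 30 to 121 per ad libitum library and 103 to 126 per control library. Its lowest, median and highest levels were 4.95, 5.38 and 6.42 CPM in pair-fed risperidone, 3.02, 5.98 and 6.68 CPM in ad libitum risperidone and 5.39, 6.21 and 6.87 CPM in control. Ad libitum libraries 1 and 3 were the lowest of the 20, and the groups overlapped. Relative to control the log2 fold change was −0.17 (95% interval −0.43 to 0.10) in pair-fed and −0.18 (−0.44 to 0.08) in ad libitum risperidone, with adjusted p of 0.927 and 0.556 (edgeR). Between pair-fed and ad libitum risperidone it was 0.01 (−0.26 to 0.29). Without ad libitum libraries 1 and 3, Gch1 stood at −0.02 (−0.19 to 0.15) in ad libitum risperidone and at −0.17 (−0.33 to −0.01, adjusted p = 0.408, edgeR) in pair-fed risperidone against control. Its span overlaps Gm49134 and Gm18811 outside exons, which held 14 and 4 counts in all.

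Slc6a3 (ENSMUSG00000021609), the gene of the dopamine transporter on chromosome 13 from 73536747 to 73578672 on the plus strand, varied most between libraries. It was at 13.5, 4.24, 16.9, 5.11, 4.73 and 4.56 CPM in pair-fed libraries 1 to 6, and at 1.75, 28.8, 3.38, 4.53, 17.1, 7.93 and 11.8 CPM in ad libitum libraries 1 to 7. The control libraries 1 to 7 had 8.32, 7.35, 4.10, 5.65, 4.63, 5.90 and 6.88 CPM. Pair-fed libraries 1 and 3 and ad libitum libraries 2, 5 and 7 were above every control library, ad libitum libraries 1 and 3 were below every one, and the remaining risperidone libraries lay inside the control range. The highest of the 20 libraries exceeded the lowest 16.4-fold in CPM, with 553 reads in ad libitum library 2 and 29 in ad libitum library 1. The coefficient of variation of Slc6a3 was 67.9% in pair-fed risperidone, where 0.158% of 15860 genes of at least 1 CPM had a higher one, 89.1% in ad libitum risperidone, where 0.99% did, and 24.5% in control, where 5.74% did. The difference in spread between groups was not tested.

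The mean level of Slc6a3 was 8.17 ± 5.55 CPM in pair-fed risperidone (SD, n = 6), 10.8 ± 9.58 CPM in ad libitum risperidone (SD, n = 7) and 6.12 ± 1.5 CPM in control (SD, n = 7). Its log2 fold change against control was 0.42 (95% interval −0.55 to 1.39, adjusted p = 0.979, edgeR) in pair-fed risperidone and 0.86 (−0.07 to 1.78, adjusted p = 0.413, edgeR) in ad libitum risperidone. Between pair-fed and ad libitum risperidone the difference was −0.44 (−1.38 to 0.50). These values moved with single libraries. The log2 fold change in ad libitum risperidone against control was 0.38 without ad libitum library 2 and 1.20 (0.45 to 1.96, adjusted p = 0.156, edgeR) without libraries 1 and 3. In pair-fed risperidone against control the range on leaving out 1 library was 0.07 to 0.55, and limma-voom with quality weights gave 0.06. The difference between pair-fed and ad libitum risperidone was 0.04 without ad libitum library 2 and −0.79 (−1.55 to −0.02, adjusted p = 0.458, edgeR) without libraries 1 and 3.

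Slc18a2 (ENSMUSG00000025094), the gene of the vesicular transporter on chromosome 19 from 59260896 to 59296012 on the plus strand, was at 46.1, 50.5 and 60.6 CPM (lowest, median and highest) in pair-fed risperidone, 36.6, 50.3 and 61.1 CPM in ad libitum risperidone and 42.0, 52.2 and 57.8 CPM in control. The groups overlapped, and pair-fed library 3 and ad libitum library 2, which were also the highest of their groups for Slc6a3, had the highest values. The log2 fold change against control was 0.02 (95% interval −0.18 to 0.22) in pair-fed and −0.05 (−0.25 to 0.14) in ad libitum risperidone, with adjusted p of 1.0 and 0.857 (edgeR). Pair-fed and ad libitum risperidone differed by 0.07 (−0.13 to 0.27). Slc18a2 shares exon sequence with Gm29261 on the opposite strand, and with the strand setting of the counting not given in the sources used here, its counts are formally uncertain. Gm29261 held 5 counts over the 20 libraries, against 17876 for Slc18a2.

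Maoa (ENSMUSG00000025037), on chromosome X from 16619698 to 16687818 on the plus strand with no overlapping gene, encodes the oxidase that prefers serotonin and noradrenaline and also degrades dopamine. Its lowest, median and highest levels were 52.5, 55.8 and 58.7 CPM in pair-fed risperidone, 37.2, 52.7 and 54.8 CPM in ad libitum risperidone and 52.3, 56.0 and 58.5 CPM in control. Ad libitum libraries 1 and 3 had 38.8 and 37.2 CPM and the other 5 libraries of that group 50.6 to 54.8 CPM, all below the control mean of 55.5 ± 2.21 CPM (SD, n = 7). The log2 fold change was 0.01 (95% interval −0.14 to 0.16, adjusted p = 1.0, edgeR) in pair-fed risperidone against control. In ad libitum risperidone against control it was −0.18 (−0.33 to −0.03), with an unadjusted p of 0.0194 and an adjusted p of 0.298 in edgeR. The difference between pair-fed and ad libitum risperidone was 0.19 (0.04 to 0.34), with an unadjusted p of 0.0173 and an adjusted p of 0.287 in edgeR. Each of the 6 pair-fed libraries was above the ad libitum mean of 48.8 ± 7.51 CPM (SD, n = 7). With ad libitum libraries 1 and 3 left out, Maoa was at −0.07 (−0.14 to 0.01) in ad libitum risperidone against control and at 0.07 (adjusted p = 0.509, edgeR) between pair-fed and ad libitum risperidone. Outside those libraries Maoa was the steadiest of the 7 genes, with a coefficient of variation of 4.03% in pair-fed risperidone and 3.99% in control.

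Maob (ENSMUSG00000040147), which lies beside Maoa on chromosome X from 16709282 to 16817366 on the minus strand with no overlapping gene, encodes the oxidase that prefers phenylethylamine and is also found in astrocytes, histamine and serotonin neurons. Its lowest, median and highest levels were 46.2, 49.0 and 59.3 CPM in pair-fed risperidone, 38.3, 51.2 and 57.7 CPM in ad libitum risperidone and 44.3, 51.4 and 59.3 CPM in control. The groups overlapped, with ad libitum libraries 1 and 3 below the rest of the 20. Set against control, the log2 fold change was −0.04 (95% interval −0.22 to 0.15) in pair-fed and −0.08 (−0.26 to 0.10) in ad libitum risperidone, with adjusted p of 0.999 and 0.747 (edgeR). Pair-fed and ad libitum risperidone differed by 0.04 (−0.14 to 0.23).

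Ratios between these genes within a library do not depend on how libraries are scaled. Reads of Ddc over Th were at 0.616, 0.821 and 0.877 (lowest, median and highest) in pair-fed risperidone, 0.690, 0.808 and 0.872 in ad libitum risperidone and 0.767, 0.930 and 0.996 in control. Each ad libitum library and each pair-fed library lay below the control median, and the ranges overlapped. The mean log2 ratio was −0.33 ± 0.189 in pair-fed risperidone (SD, n = 6), −0.34 ± 0.138 in ad libitum risperidone (SD, n = 7) and −0.13 ± 0.128 in control (SD, n = 7). The difference from control was −0.20 in pair-fed risperidone (two-sided exact permutation p = 0.0373, adjusted over 12 tests 0.177) and −0.21 in ad libitum risperidone (exact p = 0.0134, adjusted 0.161). Neither passed the adjustment, and the smallest p these designs allow are 0.00117 and 0.000583. Leaving out control library 2, which had the lowest ratio of its group, gave −0.24 (adjusted exact p = 0.026) in pair-fed and −0.26 (adjusted exact p = 0.014) in ad libitum risperidone. Both passed without that library, but its omission raises the control mean by construction and adds no support for a difference. Leaving out pair-fed library 1, which had the lowest ratio of the 20, gave −0.13 in pair-fed risperidone against control (exact permutation p = 0.0808, adjusted 0.323).

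Maob over Maoa was at 0.827, 0.871 and 1.01 (lowest, median and highest) in pair-fed risperidone, 0.874, 1.03 and 1.07 in ad libitum risperidone and 0.814, 0.918 and 1.06 in control, with overlapping groups. The log2 difference between pair-fed and ad libitum risperidone was −0.15 (exact permutation p = 0.0443, adjusted 0.177). Against control it was −0.05 in pair-fed (exact permutation p = 0.538) and 0.11 in ad libitum risperidone (exact permutation p = 0.13). Slc6a3 over Th ranged between 0.0819 and 0.319 in pair-fed risperidone, between 0.0559 and 0.442 in ad libitum risperidone and between 0.0770 and 0.167 in control. The log2 differences of Slc6a3 over Th from control were 0.13 in pair-fed and 0.34 in ad libitum risperidone, both with an adjusted exact permutation p of 0.872, and −0.21 lay between pair-fed and ad libitum risperidone. With ad libitum libraries 1 and 3 left out, the difference was 0.85 in ad libitum risperidone against control (exact permutation p = 0.0556, adjusted 0.222) and −0.72 between pair-fed and ad libitum risperidone (exact permutation p = 0.195, adjusted 0.45). Without ad libitum library 2 these differences were 0.08 and 0.05. Slc18a2 over Th differed from control by −0.06 in pair-fed and −0.05 in ad libitum risperidone, also with an adjusted exact permutation p of 0.872.

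**Figure D3:**
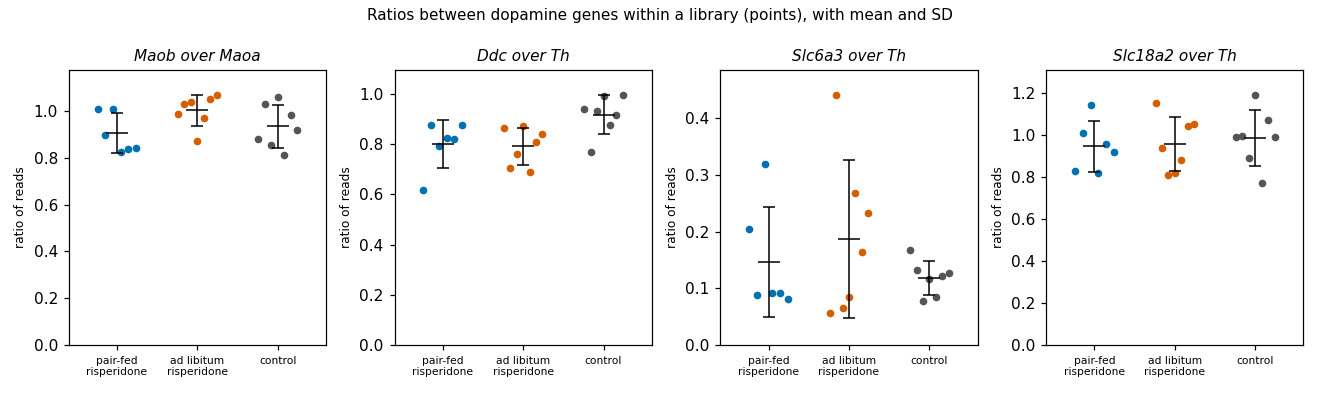
Ratios of reads between dopamine genes within each library for pair-fed risperidone, ad libitum risperidone and control, with the mean and SD of each group (n = 6, 7 and 7), on axes that start at 0. Ddc over Th is at most 0.877 in the pair-fed and 0.872 in the ad libitum libraries, and the control libraries reach 0.996 with 1 at 0.767.

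The level of Slc18a2 followed that of Slc6a3 and of Maob from library to library. Over the 20 libraries, Slc18a2 and Maob had a Pearson r of 0.85 and a Spearman rho of 0.81 (permutation p of 1e-05 and 2e-05, the first being the smallest that 100000 resamples can give, adjusted over 21 pairs 0.000105 and 0.00021). The r was 0.76 without the 2 libraries farthest from the median of Slc18a2, and 0.84 in pair-fed risperidone, 0.81 in ad libitum risperidone and 0.98 in control alone. Slc6a3 and Slc18a2 had an r of 0.83 and a rho of 0.81, with the same permutation p-values. Their r was 0.72 without the 2 farthest libraries and 0.75 without ad libitum libraries 1 and 3. Within the groups it was 0.88 in pair-fed risperidone, 1.0 in ad libitum risperidone and 0.50 in control.

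Slc6a3 and Maob had an r of 0.69 and a rho of 0.74 (adjusted permutation p = 0.00532 and 0.00196), which without ad libitum libraries 1 and 3 became an r of 0.53 and a rho of 0.64 (adjusted permutation p = 0.122 and 0.0401). These 3 pairs passed by both measures. By r alone 15 of the 21 pairs passed and all 21 were positive, but without ad libitum libraries 1 and 3 only 2 passed by r, 3 passed by rho and 11 had a positive r, so that most of these relations rest on those libraries. Maoa and Maob, which are neighbours in the genome, had an r of 0.70 over the 20 libraries and of 0.01 without libraries 1 and 3. Th and Ddc, which act in consecutive steps, had an r of 0.64 with all libraries and of 0.02 without those libraries.

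**Figure D4:**
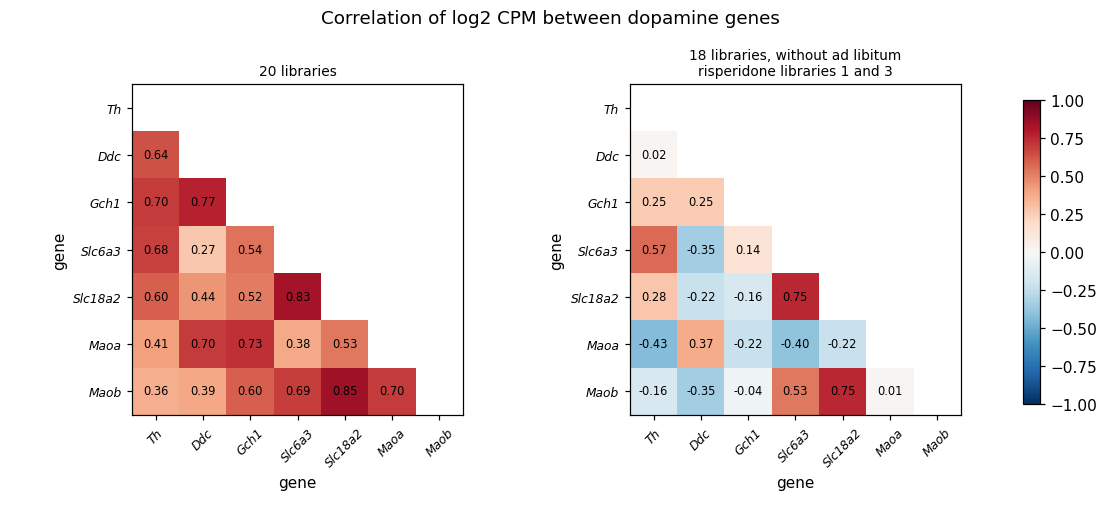
Pearson r of log2 CPM between the 7 dopamine genes over 20 libraries (left) and over 18 libraries without ad libitum risperidone libraries 1 and 3 (right), as numbers and as colour from −1 to 1. Slc18a2 stays correlated with Slc6a3 and with Maob at 0.75 in both cases on the right, while most other values are near or below 0 there.

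Slc6a3 also moved with markers of midbrain dopamine neurons, which lie outside the hypothalamus. The summed level of 11 such genes other than Slc6a3 was 115, 147 and 203 CPM (lowest, median and highest) in pair-fed risperidone, 89.0, 159 and 200 CPM in ad libitum risperidone and 122, 140 and 151 CPM in control. Pair-fed libraries 1 and 3 and ad libitum libraries 2, 5, 6 and 7 exceeded every control library on this sum. Across the 20 libraries the log2 levels of Slc6a3 and of the sum had an r of 0.90 and a rho of 0.82 (adjusted permutation p = 0.00126 and 0.00378 over 126 relations of the 7 genes with 18 cell type lists). The r was 0.85 without the 2 libraries farthest from the median of the marker sum and 0.87 without ad libitum libraries 1 and 3. Within groups it was 0.88 in pair-fed risperidone, 0.93 in ad libitum risperidone and 0.69 in control. Of the 12 listed genes, 9 passed the low-count filter, and 0 were called in either risperidone group against control (edgeR). The 9 include Slc6a3 itself, so the counts and medians that follow are not independent of it. In pair-fed risperidone 8 of the 9 were higher than in control, with a median log2 fold change of 0.20 beside 0.00 over all genes and 0 at an unadjusted p under 0.05. In ad libitum risperidone 9 of the 9 were higher, with a median of 0.23 beside 0.01 and 1 at an unadjusted p under 0.05. Aldh1a1, Ret and Ntsr1 gave most of the sum, whereas the defining factors Pitx3, En1 and Foxa2 had means of 0.135, 0.364 and 0.251 CPM and no read in 2, 3 and 6 libraries. The part of these cells in the levels of Slc6a3 was not tested.

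Slc18a2 and Maob moved with the same midbrain sum at r of 0.79 and 0.75 (adjusted permutation p = 0.00189 and 0.00357), and of 0.67 and 0.68 without ad libitum libraries 1 and 3. They also moved with a sum of 5 histamine neuron genes outside the 7, led by Hrh3 and Hdc, at r of 0.71 and 0.58 (adjusted permutation p = 0.00693 and 0.0353). The histamine values were 0.87 for Slc18a2 and 0.74 for Maob without ad libitum libraries 1 and 3. The histamine sum was 140 to 180 CPM in pair-fed risperidone, 146 to 182 CPM in ad libitum risperidone and 132 to 192 CPM in control. Defining genes of noradrenaline and serotonin neurons were near 0, with means of 0.153 CPM for Dbh, 0.0527 for Slc6a2, 0.443 for Tph2 and 0.227 for Slc6a4.

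Ddc moved with the summed level of the 15 hypothalamus markers at an r of 0.84 and a rho of 0.74 (adjusted permutation p = 0.0021 and 0.00756). The r was 0.73 without the 2 libraries farthest from the median of these markers' sum and 0.63 without ad libitum libraries 1 and 3. Within groups it was 0.46 in pair-fed risperidone, 0.87 in ad libitum risperidone and 0.66 in control. The sum of these markers was 919, 1300 and 1390 CPM (lowest, median and highest) in pair-fed risperidone, 558, 1010 and 1400 CPM in ad libitum risperidone and 1230, 1350 and 1620 CPM in control. Of the 14 tested, 10 were lower in pair-fed and 13 in ad libitum risperidone than in control, with 0 called in either (edgeR). Median log2 fold changes were −0.19 and −0.40, beside 0.00 and 0.01 over all genes. An unadjusted p under 0.05 (edgeR) was met by 2 and 8 of the 14, beside 6.66% and 13.1% of all genes tested. The part of these markers in the levels of Ddc was not tested. In all, 11 of the 126 relations passed by both r and rho. The others joined Slc6a3 and Maob to the thalamus list, at r of 0.67 and 0.72, and Slc6a3, Slc18a2 and Maob to the pituitary list, at 0.71, 0.77 and 0.70. Without ad libitum libraries 1 and 3 these were 0.49 and 0.53 for the thalamus list and 0.55, 0.58 and 0.47 for the pituitary list. These lists and sums were set against the 7 genes after their values had been seen.

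**Figure D5:**
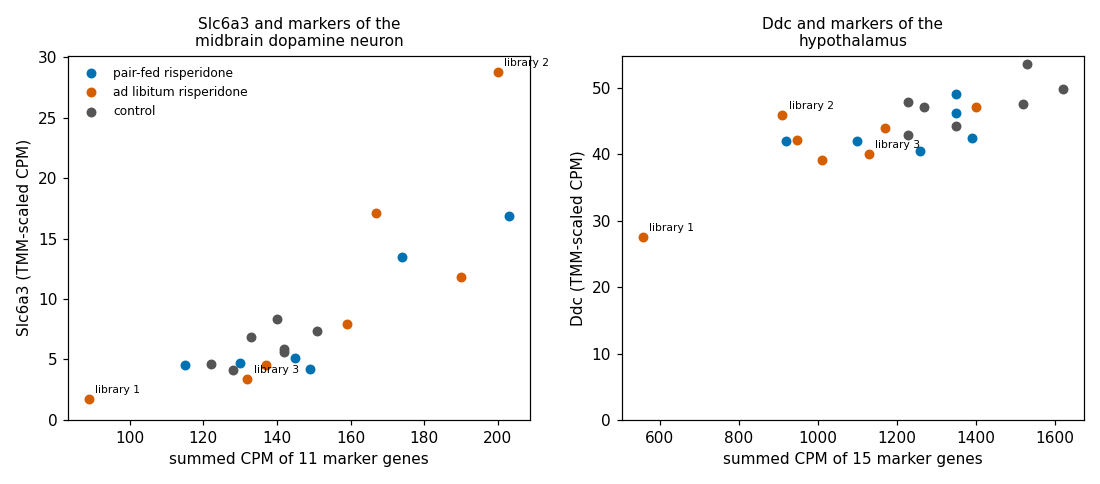
Slc6a3 against the summed CPM of 11 midbrain dopamine neuron genes (left) and Ddc against the summed CPM of 15 hypothalamus markers (right), 1 point per library, for pair-fed risperidone, ad libitum risperidone and control, with ad libitum libraries 1, 2 and 3 named. Slc6a3 is at 28.8 CPM with a midbrain sum of 200 CPM in ad libitum library 2 and at 16.9 CPM with the highest sum, 203 CPM, in pair-fed library 3, and ad libitum library 1 is lowest in both panels.

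The genes most like each of the 7 over the 20 libraries were ranked by Pearson r of log2 CPM among 13607 other named genes of at least 1 CPM. For Slc6a3 these were Chrna6, a nicotinic receptor subunit of dopamine neurons, at 0.91, Nxph4 at 0.90 and Ctxn3 at 0.89. For Slc18a2 they were Wif1, an inhibitor of Wnt signalling, at 0.84, and the peptide gene Adcyap1 and the transporter gene Slc10a4, both at 0.82. Maob was most like Cbln2 at 0.89, the vesicular glutamate transporter gene Slc17a6 at 0.86 and Serpine2 at 0.85. Maoa was most like Nap1l5 at 0.94, Klhl13 at 0.92 and Impact at 0.92. Th was closest to Plekhb1 at 0.93, Klk6 at 0.92 and Pde8a at 0.90, and Ddc to Tmem130 at 0.92, Stk32a at 0.90 and Slc25a18 at 0.89. Gch1 was closest to Il33 and Fgf1, both at 0.87, and Plpp2 at 0.86. Without ad libitum libraries 1 and 3 the values were 0.84 to 0.90 for the 3 genes of Slc6a3 and 0.42 to 0.59 for those of Gch1. They were 0.74 to 0.84 for those of Th, 0.69 to 0.73 for Ddc and 0.68 to 0.83 for Slc18a2. Those of Maoa had 0.58 to 0.74 and those of Maob 0.67 to 0.75.

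Among the other genes of catecholamine breakdown and conversion, 1 of the 9 tested fell in pair-fed risperidone and 0 changed in the other comparisons (edgeR, with 1 at an unadjusted p under 0.05 in each). Sult1a1, which encodes a phenol sulfotransferase, was at 9.55, 13.2 and 15 CPM (lowest, median and highest) in pair-fed risperidone, 10.6, 16.7 and 20.7 CPM in ad libitum risperidone and 14.4, 19.1 and 23.3 CPM in control. Pair-fed and control libraries overlapped between 14.4 and 15 CPM. In pair-fed risperidone against control Sult1a1 fell, with a log2 fold change of −0.60, an SE of 0.135 and an adjusted p of 0.0429 in edgeR. It did not pass under 15 of 31 other settings, whose adjusted p in all spanned 0.00327 to 0.138. These 15 included the omission of any 1 of pair-fed libraries 1, 2, 3, 5 and 6, of control libraries 1, 2, 3, 4 and 6, and of ad libitum libraries 4, 5 and 6. In ad libitum risperidone against control Sult1a1 was at −0.30 (adjusted p = 0.331, edgeR), and −0.31 lay between pair-fed and ad libitum risperidone. Comtd1 was at 0.15 in pair-fed and −0.02 in ad libitum risperidone against control, Aldh1a1 at 0.20 and 0.09, Aldh2 at −0.03 and −0.06, and the reductase gene Akr1b3 at 0.03 and −0.05 (log2 fold changes). Dbh and Pnmt, which lead on to noradrenaline and adrenaline, were under the filter.

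Of the genes that make and recycle tetrahydrobiopterin, 0 of 6 tested passed in the 4 comparisons (edgeR, at most 1 at an unadjusted p under 0.05). Pcbd1, whose product recycles the cofactor, was at 31.2 ± 2.69 CPM in pair-fed risperidone (SD, n = 6), 25.8 ± 4.74 CPM in ad libitum risperidone and 30.8 ± 2.10 CPM in control (SD, n = 7 each). Its log2 fold change was 0.02 in pair-fed and −0.25 in ad libitum risperidone against control, and 0.27 between pair-fed and ad libitum risperidone (adjusted p = 0.247, edgeR). Pts, the next enzyme after Gch1, was at −0.02 in pair-fed and −0.09 in ad libitum risperidone against control, Spr at 0.03 and 0.06, Qdpr at 0.14 and 0.02, and Pcbd2 at 0.02 and 0.12. For other monoamine synthesis and transport 0 of 6 tested passed in any comparison (edgeR, at most 1 at an unadjusted p under 0.05). The histamine methyltransferase gene Hnmt was at 0.02 in pair-fed and −0.11 in ad libitum risperidone against control, the monoamine transporter genes Slc22a3 at 0.11 and −0.18 and Slc29a4 at 0.03 and 0.06, and Slc22a2 and Slc18a1, both under 1 CPM, at 0.04 and −0.89 and at 0.23 and 0.25.

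Dopamine receptor genes gave 0 of 3 tested in any comparison (edgeR, 0 at an unadjusted p under 0.05). Drd2 was at −0.06 in pair-fed and −0.05 in ad libitum risperidone against control, Drd1 at 0.17 and 0.33 and Drd5 at 0.06 and 0.20. Among 17 proteins that bind or regulate the 7 gene products, 0 passed in any comparison (edgeR, at an unadjusted p under 0.05 at most 3). There were 3 in ad libitum risperidone against control and 3 between the risperidone groups, beside 13.1% and 13.5% of all genes. Ywhaz, a 14-3-3 protein that binds phosphorylated tyrosine hydroxylase, was at 0.01 in pair-fed and 0.21 in ad libitum risperidone against control, the phosphatase subunit gene Ppp2ca at 0.11 and 0.06, the kinase gene Camk2a at −0.09 and 0.65, Stx1a at 0.01 and 0.40, Park7 at 0.09 and −0.01, the amino acid transporter gene Slc7a5 at −0.10 and 0.03, and the synuclein gene Sncb at 0.07 and 0.12. The SD of Camk2a was 797 CPM over ad libitum libraries, against 34.5 CPM over pair-fed and 26.4 CPM over control libraries. The summed level of the 17 genes was 7270 CPM in ad libitum library 1, against 3720 to 4220 CPM in the other libraries of its group. Library 1 also had the high sum of cortex, hippocampus and amygdala markers, and its part in the values of these genes was not tested.

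Transcription factors of dopamine neurons gave 0 of 14 tested in any comparison (edgeR, at most 4 at an unadjusted p under 0.05). Nr4a2, which activates Th and Slc6a3 in midbrain neurons, averaged 18.4 ± 5.71 CPM in pair-fed risperidone (SD, n = 6), 18.7 ± 6.49 CPM in ad libitum risperidone and 13.0 ± 4.33 CPM in control (SD, n = 7 each). Its log2 fold change was 0.50 in pair-fed and 0.55 in ad libitum risperidone against control, and 0.52 for the mean of both (95% interval 0.10 to 0.94, adjusted p = 0.492, edgeR). Isl1 was at −0.04 in pair-fed and −0.26 in ad libitum risperidone against control, Otp at −0.18 and −0.40, Pax6 at 0.35 and 0.31, En2 at 0.38 and 0.23, and Dlx6 at 0.09 and −0.12. Of 13 genes that arcuate Th neurons also express, 0 passed in any comparison (edgeR, at most 5 at an unadjusted p under 0.05). These 5 were in ad libitum risperidone against control, beside 13.1% of all genes. Gal, a peptide gene, came nearest at −0.26 in pair-fed and −0.37 in ad libitum risperidone against control, and −0.32 for the mean of both (adjusted p = 0.0566, edgeR). Ghrh was at −0.25 in pair-fed and −0.46 in ad libitum risperidone against control, Esr1 at 0.08 and 0.23, the prolactin receptor gene Prlr at 0.05 and −0.02, Onecut3 at −0.15 and −0.66 and Gad1 at −0.02 and −0.11. Outside these lists, 2 genes of the 18 cell type lists were called. They were 1 of 6 zona incerta and 1 of 10 tanycyte genes tested. Over all genes tested, 0.486% were called in pair-fed and 0.0615% in ad libitum risperidone against control, and 0.397% between the risperidone groups. Penk rose by 0.37 in pair-fed and by 0.39 in ad libitum risperidone against control (adjusted p = 0.00571 and 0.0343, edgeR), and Nes by 0.53 in pair-fed against ad libitum risperidone (adjusted p = 0.00757, edgeR). In ad libitum risperidone Penk did not pass under 10 of 31 other settings (adjusted p up to 0.084), among them leaving out ad libitum library 2 or 7 or any control library from 1 to 6.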

How the data were processed

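RNA of hypothalamus slices was sequenced as paired-end reads of 150 bp, per the labels' protocols. The table the authors deposited holds raw counts, whole numbers of reads per gene with no normalization, with 1 column for each of the 20 libraries. STAR, featureCounts, DESeq2, GRCm38 and mm10 are named, per the submitters' processing notes. Tool versions, the annotation release, how strand was treated and whether genes were filtered are not given in the sources used. Of 55471 identifiers, 55230 were matched to GENCODE M21 of GRCm38. No sequencing batch is labelled.

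Counts were tested with edgeR 4.0.16 (R 4.3.3): TMM scaling, filterByExpr with a minimum count of 10, 1 model over 20 libraries with a coefficient per group, and two-sided quasi-likelihood F tests, with Benjamini-Hochberg adjustment over 17893 genes at 0.05. The common biological coefficient of variation was 11.26%. Levels are TMM-scaled CPM, logged with a prior count of 2 for correlations, and summed marker CPM were logged after adding 0.1. Read ratios used a pseudocount of 0.5 and exact permutation tests adjusted over 12 tests. Correlations used 100000 permutations. The tests were tried on simulated data. DESeq2 1.42.0, limma-voom (limma 3.58.1), other scalings, filters and designs, and the leaving out of libraries were alternatives. Total counts per library were 9748005 to 18606543, and no pair of libraries within a group agreed within sampling noise (lowest chi-square per degree of freedom 2.64 over 57 pairs).

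The members and lists were chosen with earlier results of these data known. All 7 genes are named. From each pathway list the genes past the threshold and the 3 with the smallest p in each comparison are named, and from cell type lists those past the threshold and, for lists set beside a result, the most abundant. For each of the 7, the 3 genes with the highest r are named. A few genes that these rules would name are not reported here.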

Additional observations from a re-analysis of the deposited data

Results flagged for a closer look

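Within groups, 33 sets of values (the 7 levels and 4 read ratios in each of 3 groups) were searched for a library far from the others by Dixon's ratio, and 2 stood out, where chance flags about 1 in 20. Ddc was at 27.5 CPM in ad libitum risperidone library 1, with 39.1 CPM as the nearest and 47.2 CPM as the highest value of the group, a ratio of 0.589 against a critical 0.568 for 7 libraries. That library also had 1190 CPM over the cortex, hippocampus and amygdala markers, and the part of these in the value of Ddc was not tested. Ddc over Th was at 0.616 reads per read in pair-fed risperidone library 1, with 0.792 as the nearest and 0.877 as the highest value of the group, a ratio of 0.674 against a critical 0.625 for 6 libraries. Th was at 65.8 CPM in that library, the highest of the 20, and Ddc at 40.6 CPM, the lowest of its group.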

How the results depend on the processing

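Under 31 other settings 0 of the 7 genes were called in any of the 4 comparisons. The lowest adjusted p of any of them was 0.353 for Ddc in pair-fed risperidone against control, 0.156 for Slc6a3 in ad libitum risperidone against control, 0.203 for Maoa between pair-fed and ad libitum risperidone and 0.249 for Ddc in the mean of both groups against control. Over all genes the counts of calls ranged between 65 and 250, 0 and 103, 31 and 170, and 18 and 193 in that order. The replicate numbers of the titles did not pair the libraries (median correlation of deviations −0.0255 over 19 pairs with the same number, 2 of them over 0.1). With a replicate block the number of the 7 called was 0 in each comparison, and 65, 1, 48 and 45 genes were called, against 87, 11, 71 and 59 without it. A fit to the groups compared alone called 245, 3, 31 and 18, and without ad libitum libraries 1 and 3 250, 48, 142 and 193 genes were called. DESeq2 called 134, 103, 170 and 98 genes and limma-voom 223, 51, 139 and 151. Gch1 and Slc6a3 had the fewest reads of the 7 genes.

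Of the log2 fold changes of the 7 genes under these settings, 838 kept their direction and their side of the threshold and 30 changed sign, all from values near 0 except that of Slc6a3. With limma-voom, Slc18a2 in ad libitum risperidone was at 0.02, Maob at 0.02, Slc18a2 in the mean of both at 0.02, and between pair-fed and ad libitum risperidone Gch1 was at −0.13, Slc18a2 at −0.01 and Maob at −0.07. Without ad libitum libraries 1 and 3, Slc18a2 in ad libitum risperidone was at 0.05, Maob at 0.03, Slc18a2 in the mean of both at 0.03, and between pair-fed and ad libitum risperidone Th was at −0.03, Gch1 at −0.15, Slc18a2 at −0.03 and Maob at −0.07. Leaving out 1 library at a time gave for Th −0.05 to 0.10 in ad libitum risperidone and −0.02 to 0.14 between pair-fed and ad libitum risperidone, for Slc18a2 −0.03 to 0.05 in pair-fed risperidone, −0.11 to 0.01 in ad libitum risperidone and −0.06 to 0.02 in the mean of both, and between pair-fed and ad libitum risperidone −0.10 to 0.07 for Gch1, −0.79 to 0.04 for Slc6a3 and −0.01 to 0.09 for Maob. The cause of these changes was not tested.

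The number of read ratios past the test ranged between 0 and 2 on leaving out 1 library, with 2 without control library 2. Leaving out 1 library gave between pair-fed and ad libitum risperidone −0.02 to 0.09 for Ddc over Th, −0.07 to 0.03 for Slc18a2 over Th and −0.48 to 0.05 for Slc6a3 over Th, and −0.14 to 0.25 for Slc6a3 over Th in pair-fed risperidone against control. As deviations from group means, 7 pairs of the 7 genes correlated by both measures in place of 3. Without ad libitum libraries 1 and 3 the r was −0.43 for Th and Maoa, −0.16 for Th and Maob, −0.35 for Ddc and Slc6a3, −0.22 for Ddc and Slc18a2, −0.35 for Ddc and Maob, −0.16 for Gch1 and Slc18a2, −0.22 for Gch1 and Maoa, −0.04 for Gch1 and Maob, −0.40 for Slc6a3 and Maoa and −0.22 for Slc18a2 and Maoa, each positive with them. The same settings were run for Sult1a1, Penk and Nes after their values had been seen. Penk in pair-fed risperidone and in the mean of both groups, and Nes, were called in all 31.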
